A study of Rattus norvegicus with 33 samples.

Results

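Epithelial microRNAs of 2 kinds were followed in rat plasma after liver injury: rno-miR-200a-3p, rno-miR-200b-3p and rno-miR-429, which form the miR-200 cluster, and rno-miR-203a-3p and rno-miR-203b-3p. The prefix rno, for rat, is left out from here on. They were taken by name and are 5 of the 462 mature miRNAs listed in the count tables, and each was listed in 6 of 6 tables. The study treated male Sprague-Dawley rats, 6 weeks old and 5 to a group, with toxicants of 3 injury types and sequenced the small RNA of 200 µL of EDTA plasma from the descending aorta. The comparison of interest sets the 2 cholestasis models, whose toxicants injure the bile duct and which are called bile duct models here, against the other 4 models, time by time.

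In the ANIT model the rats received α-naphthylisothiocyanate at 150 mg/kg in corn oil, and in the MDA model 4,4'-methylenedianiline at 250 mg/kg in carboxymethylcellulose (CMC), and plasma was taken at 3, 6, 12, 24 and 48 h. The hepatocellular models were acetaminophen (APAP, 1500 mg/kg after a 12 h fast) and thioacetamide (TAA, 100 mg/kg), both in CMC, with plasma at 3, 6, 12 and 24 h. The steatosis models were daily carbon tetrachloride (CCl4, 300 mg/kg, Days 1, 3 and 5) and daily dexamethasone (DEX, 15 mg/kg, Days 1, 2 and 3), both in corn oil. Each acute model had a vehicle group of its own, and CCl4 and DEX shared a vehicle group. The tables hold 29 distinct count columns, called libraries here, 10 from treated rats of the bile duct models, 14 from treated rats of the other models and 5 from vehicle rats. Each group has 1 column, so a difference between a treated and a vehicle library has no replicate check. In ANIT the vehicle, 12, 24 and 48 h groups have 2 labelled samples each but 1 column, and whether that column is a sum, a mean or 1 of the 2 samples is unknown. The ANIT reads and counting intervals below take the column as a single library. The sources used here do not say whether a library came from 1 rat or from a pool.

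The miR-200 cluster is known for keeping epithelial cells epithelial. Its miRNAs repress the transcription factors Zeb1 and Zeb2, which switch off E-cadherin, and in the liver they are abundant in the cells that line the bile ducts and scarce in hepatocytes. The hairpins of miR-200a, miR-200b and miR-429 lie close together and are made from a shared transcript, so their mature forms are often read as a unit. miR-203 is abundant in skin and other stratified epithelia, where it represses p63 and lets keratinocytes leave the cell cycle. Plasma miRNAs come from blood cells, from secretion and from damaged tissue, and the hepatocyte miRNA miR-122-5p is the usual plasma marker of liver cell damage.

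The miR-203 sequences are shown because the pair lies on opposite strands of 1 locus, which bears on how its reads can be told apart. RefSeq (build GRCr8) held the mature sequence of 2 of the 5 miRNAs, miR-203a-3p and miR-203b-3p, which are given with the 5' arm of each hairpin, 5′ to 3′, with bases 2 to 8 (the seed) in capitals.
miR-203a-3p: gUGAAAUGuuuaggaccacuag
miR-203b-3p: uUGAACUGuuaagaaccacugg
miR-203a-5p: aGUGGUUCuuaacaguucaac
miR-203b-5p: aGUGGUCCuaaacauuucac
The seeds of miR-203a-3p and miR-203b-3p differ, and neither is shared by another of the 693 mature rat miRNAs of the table. miR-203b-3p is complementary to miR-203a-5p over 20 of 20 aligned bases, and miR-203a-3p to miR-203b-5p likewise over 20 of 20. The 5' arms were listed in none of the count tables. The sources used here do not say whether the counting used the strand. If it did not, reads of miR-203b-3p and reads of miR-203a-5p could not be told apart in the counts. The same would hold for reads of miR-203a-3p and reads of miR-203b-5p.

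Library totals ran from 14176 reads (MDA vehicle) to 383330 reads (TAA 24 h). The hepatocyte markers miR-122-5p and miR-122-3p summed to between 49060 and 583600 rpm (reads scaled to equal library totals) in treated libraries of the bile duct models and between 48540 and 654700 rpm in those of the other models, against 6481 to 33370 rpm in vehicle libraries. Red cell markers (6 miRNAs, 5 or 6 of them listed per table) summed to between 3328 and 26030 rpm in the treated bile duct libraries and between 842.6 and 68000 rpm in the other treated libraries, against 31810 to 66110 rpm in vehicle libraries. The 5 leukocyte and platelet markers summed to between 1403 and 6896 rpm in the treated bile duct libraries and between 237.4 and 13740 rpm in the other treated libraries, against 10290 to 15560 rpm in vehicle libraries. The list of pancreas, islet and gut markers held 5 miRNAs (miR-375-3p, miR-216a-5p, miR-217-5p, miR-215 and miR-194-5p), 3 to 5 of them listed per table. They summed to between 3578 and 68200 rpm, 2890 and 29290 rpm, and 25470 and 40880 rpm in the same 3 sets. miR-216a-5p and miR-217-5p were at 0 in 6 and 12 of the libraries that listed them. miR-375-3p reached at most 1434 rpm in a library, a small part of the highest sums. The tissue that gave the miR-215 and miR-194-5p reads was not tested, so these sums do not show release from pancreas or gut. The skin marker miR-205 was at 0 in 7 of 29 libraries. The part of these markers in the results was not tested. Plasma is a bulk sample, in which more cells releasing a miRNA and more release per cell cannot be told apart. A high miR-122-5p share lowers the rpm of every other miRNA, so ratios to vehicle were scaled by TMM, a composition factor, within each model. A miRNA counted as measured in a model when at least 1 library held 20 reads, and it was called higher or lower when its ratio to the model's own vehicle was at least 2 or at most 0.5 and the exact 95% interval of the ratio excluded 1. Intervals cover counting error only.

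In plasma of vehicle rats all 5 miRNAs were rare. miR-203a-3p was the most abundant at 810.2 ± 515.7 rpm (SD, n = 5 vehicle libraries), followed by miR-200a-3p at 243.9 ± 93.4 rpm, miR-200b-3p at 86.6 ± 26.9 rpm, miR-429 at 47.1 ± 60.1 rpm and miR-203b-3p at 36.8 ± 20.3 rpm. The means of miR-429 and miR-203b-3p differed by less than either SD. The vehicle libraries held 3 to 37 reads of miR-200a-3p, 1 to 17 of miR-200b-3p, 0 to 5 of miR-429 and 1 to 5 of miR-203b-3p, so the ratios to vehicle below have wide intervals. miR-203a-3p, with 6 to 90 reads, ranged 4.17-fold between vehicle libraries, the highest level being 1663 rpm in the TAA vehicle.

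**Figure D1:**
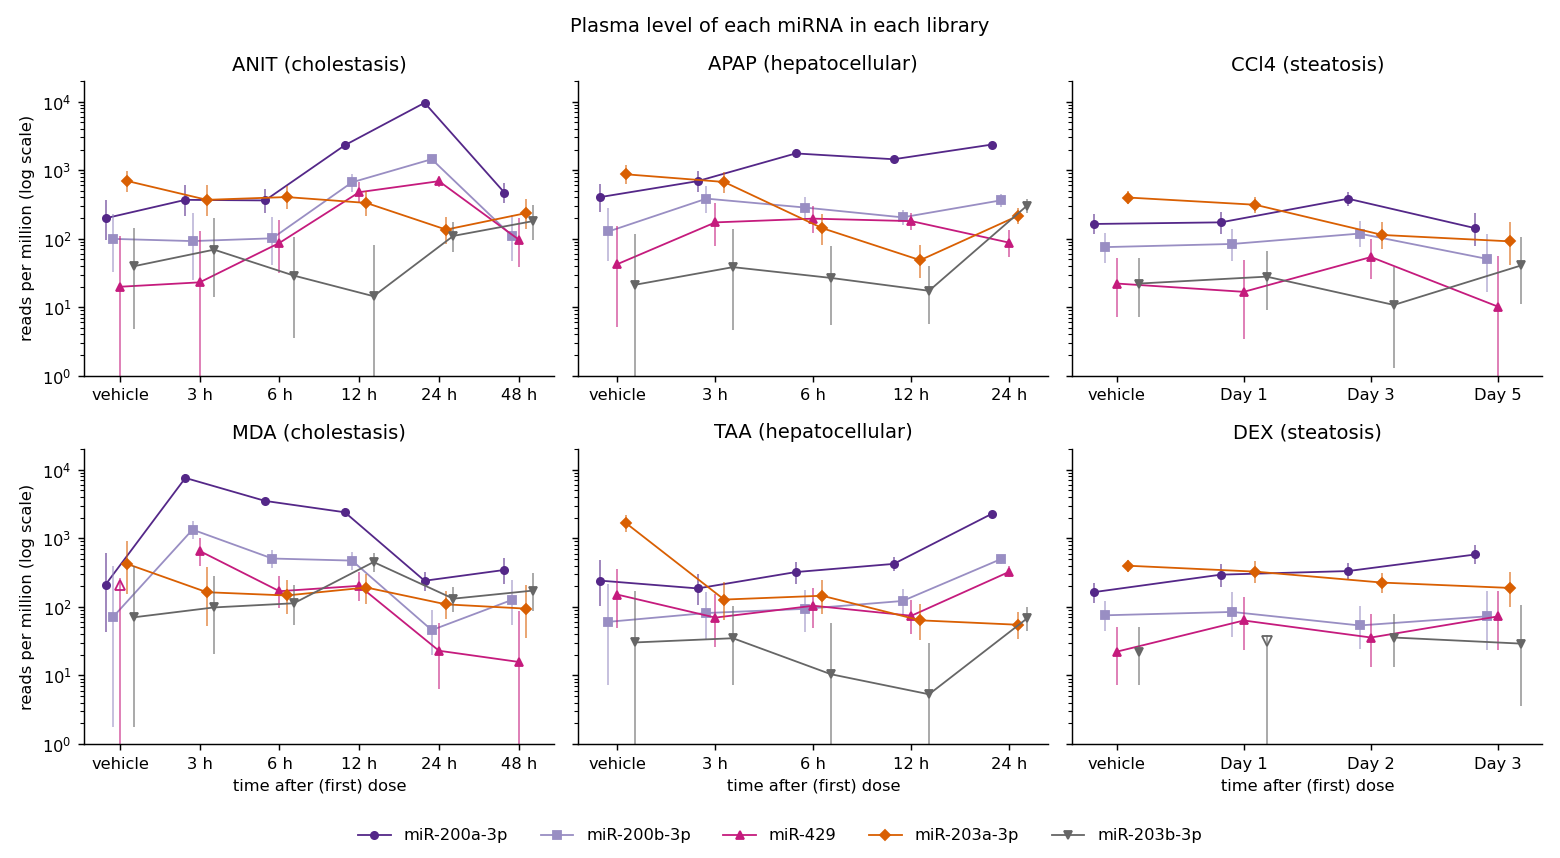
Level of each of the 5 miRNAs in rpm (log axis) in each library, by model and time. Points are single libraries with exact 95% counting intervals, cut at the lower edge of the axis, open symbols are libraries with 0 reads drawn at the level of 3 reads, and lines join successive libraries with reads. miR-200a-3p was highest at 24 h in ANIT (9618 rpm) and at 3 h in MDA (7623 rpm).

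miR-200a-3p was higher in both bile duct models, and at different times. In the MDA model it had 233, 312, 213, 42 and 22 reads (7623, 3520, 2402, 240.4 and 346 rpm) at 3, 6, 12, 24 and 48 h, against 3 reads (212 rpm) in the MDA vehicle library. The highest level was thus in the first library after dosing, and the 24 and 48 h levels were less than 2-fold above the vehicle level in rpm. The TMM-scaled ratio was 37.5 at 3 h (95% interval 12.7 to 183), 25.2 at 6 h (8.53 to 123) and 18.7 at 12 h (6.30 to 91.2), which all passed the rule. The 24 h ratio of 2.75 (0.880 to 13.9) and the 48 h ratio of 3.23 (0.971 to 16.9) missed the rule. Both depended on the scaling: with 1 TMM over all libraries and the same vehicle they passed, at 4.36 (1.39 to 22.0) and 4.01 (1.20 to 20.9). With that scaling and the 5 vehicle libraries added up they were 3.30 (2.21 to 4.87) and 3.04 (1.80 to 4.93).

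In the ANIT model the order of times was the other way. miR-200a-3p had 16, 25, 160, 1490 and 34 reads (369, 362, 2313, 9618 and 472 rpm) at 3, 6, 12, 24 and 48 h, against 10 reads (199 rpm) in the ANIT vehicle library. The 24 h library held the highest miR-200a-3p level of all 29 libraries. At 48 h the level was lower, at 472 rpm against 199 rpm in vehicle, but its TMM-scaled ratio still passed as higher. The ratio was 1.86 at 3 h (0.794 to 4.59), which did not pass, 2.55 at 6 h (1.18 to 5.95), 15.3 at 12 h (8.11 to 32.5), 64.6 at 24 h (35.0 to 135) and 6.77 at 48 h (3.27 to 15.4). With total counts in place of TMM the 6 h ratio did not pass, at a log2 value of 0.86.

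miR-200b-3p followed the same courses at a lower level. It had 41, 45, 42, 8 and 8 reads in MDA (1341, 508, 474, 45.8 and 126 rpm at 3, 6, 12, 24 and 48 h), against 1 read (70.5 rpm) in the MDA vehicle. In ANIT it had 4, 7, 46, 224 and 8 reads (92.2, 101, 665, 1446 and 111 rpm), against 5 reads (99.4 rpm) in the ANIT vehicle. It passed the rule as higher at 3, 6 and 12 h in MDA, at 19.8-fold (3.36 to 801), 10.9-fold (1.86 to 440) and 11.0-fold (1.88 to 446), and at 12 and 24 h in ANIT, at 8.80-fold (3.51 to 28.4) and 19.4-fold (8.20 to 60.4).

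miR-429, the least abundant of the cluster, had 20, 15, 18, 4 and 1 reads at 3, 6, 12, 24 and 48 h in MDA, against 0 reads in the MDA vehicle. With 0 reads taken as up to 3 reads, it was at least 3.22-fold higher at 3 h in MDA, the 1 time that passed. In ANIT it had 1, 6, 33, 107 and 7 reads (23.1, 86.8, 477, 691 and 97.2 rpm), against 1 read (19.9 rpm) in the ANIT vehicle. It passed at 12 h (31.6-fold, 5.28 to 1284), at 24 h (46.4-fold, 8.15 to 1849) and at 48 h (13.9-fold, 1.79 to 628), intervals that span 2 orders of magnitude because the vehicle library held 1 read.

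By library, the members called can be read against the share of all measured miRNAs called. In MDA 3, 2 and 3 of the 4 measured members were higher at 3, 6 and 12 h, where 16.8%, 18.9% and 18.9% of 95 measured miRNAs were higher and 27.4%, 29.5% and 27.4% lower. At 24 and 48 h 0 of 4 were higher in MDA, where 17.9% and 22.1% of miRNAs were higher and 33.7% and 29.5% lower. In ANIT 0, 1, 3, 3 and 2 of 4 members were higher at 3, 6, 12, 24 and 48 h, where 5.93%, 22%, 19.5%, 26.3% and 22% of 118 measured miRNAs were, and 0, 0, 0, 1 and 0 were lower, where 19.5%, 23.7%, 17.8%, 24.6% and 25.4% were. The lower member was miR-203a-3p.

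The cluster was not confined to the bile duct models. In APAP miR-200a-3p had 36, 197, 416 and 568 reads (692, 1755, 1443 and 2363 rpm) at 3, 6, 12 and 24 h, against 19 reads (403 rpm) in the APAP vehicle. Its ratio was 1.95 at 3 h (1.09 to 3.61), below the 2-fold threshold, and passed at 10.4 (6.47 to 17.6), 18.8 (11.9 to 31.6) and 16.9 (10.7 to 28.3) at the later times. In TAA it had 16, 31, 80 and 874 reads (186, 322, 424 and 2280 rpm), against 8 reads (242 rpm) in the TAA vehicle. The TAA ratio was 1.61 at 3 h (0.649 to 4.33), which did not pass, then 4.15 (1.87 to 10.5), 8.17 (3.95 to 19.6) and 33.2 (16.8 to 77.2). With total counts the 6 and 12 h calls in TAA were lost, at log2 values of 0.41 and 0.81.

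miR-200b-3p and miR-429 were also higher in the hepatocellular models. miR-200b-3p had 20, 32, 59 and 87 reads at 3, 6, 12 and 24 h in APAP, against 6 in its vehicle, and passed at each time, between 3.44-fold (1.33 to 10.5, 3 h) and 8.46-fold (3.67 to 24.0, 12 h). In TAA it had 7, 9, 23 and 190 reads, against 2 in its vehicle, and passed at 12 h (9.39-fold, 2.32 to 82.2) and 24 h (28.9-fold, 7.89 to 240). miR-429 passed at 6, 12 and 24 h in APAP, with 22, 52 and 21 reads against 2 in vehicle, and at 24 h in TAA, with 125 reads against 5 in vehicle (7.60-fold, 3.17 to 23.8). Of the 5 measured members 1, 3, 3 and 4 were higher in APAP at 3, 6, 12 and 24 h, where 16.2%, 15.4%, 23.8% and 41.5% of 130 miRNAs were, and 0, 1, 1 and 0 were lower, where 6.92%, 9.23%, 21.5% and 32.3% were. In TAA 0, 1, 2 and 4 of 5 were higher, where 11.4%, 15.4%, 25.2% and 43.9% of 123 miRNAs were, and 1 of 5 was lower at each time, where 10.6%, 8.13%, 32.5% and 35.8% were.

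In the steatosis models the levels were lower. miR-200a-3p had 31, 71 and 14 reads (173, 383 and 142 rpm) in CCl4 at Days 1, 3 and 5 and 28, 56 and 40 reads (295, 333 and 582 rpm) in DEX at Days 1, 2 and 3, against 37 reads (164 rpm) in their shared vehicle. It passed at Day 3 (5.80-fold, 3.85 to 8.88) and Day 5 (2.39-fold, 1.19 to 4.53) in CCl4 and at Day 2 (2.63-fold, 1.71 to 4.10) and Day 3 (3.89-fold, 2.43 to 6.26) in DEX. The CCl4 Day 5 value turned to a log2 ratio of −0.20 with total counts. miR-200b-3p passed at Day 3 in CCl4 (3.91-fold, 1.98 to 7.84) and was under the read minimum in DEX, and miR-429, with at most 10 reads, was under it in both. In CCl4 0, 2 and 1 of 3 measured members were higher, where 6.06%, 18.2% and 18.2% of 132 miRNAs were, and in DEX 0, 1 and 1 of 2, where 15.3%, 17.6% and 19.8% of 131 miRNAs were. None of the measured members was lower in either, where 9.09%, 18.9% and 16.7% of miRNAs were in CCl4 and 16%, 12.2% and 15.3% in DEX.

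Counted over libraries, miR-200a-3p was higher than vehicle in 7 of 10 treated libraries of the bile duct models and in 10 of 14 of the other models. miR-200b-3p was higher in 5 of 10 and in 7 of the 11 other libraries where it was measured, and miR-429 in 4 of 10 and in 4 of 8. With total counts the numbers were 6 of 10 and 7 of 14 for miR-200a-3p, 5 of 10 and 3 of 11 for miR-200b-3p, and 3 of 10 and 2 of 8 for miR-429. With 1 TMM over all libraries miR-200a-3p was higher in 9 of 10 bile duct and 9 of 14 other libraries against their own vehicles, and, with that scaling, in 7 of 10 and 7 of 14 when a call was needed against each of the 5 vehicle libraries. Relative to total counts, TMM moved the log2 ratios of a library up by 0.00299 (ANIT 3 h) to 2.40 (APAP 12 h).

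**Figure D2:**
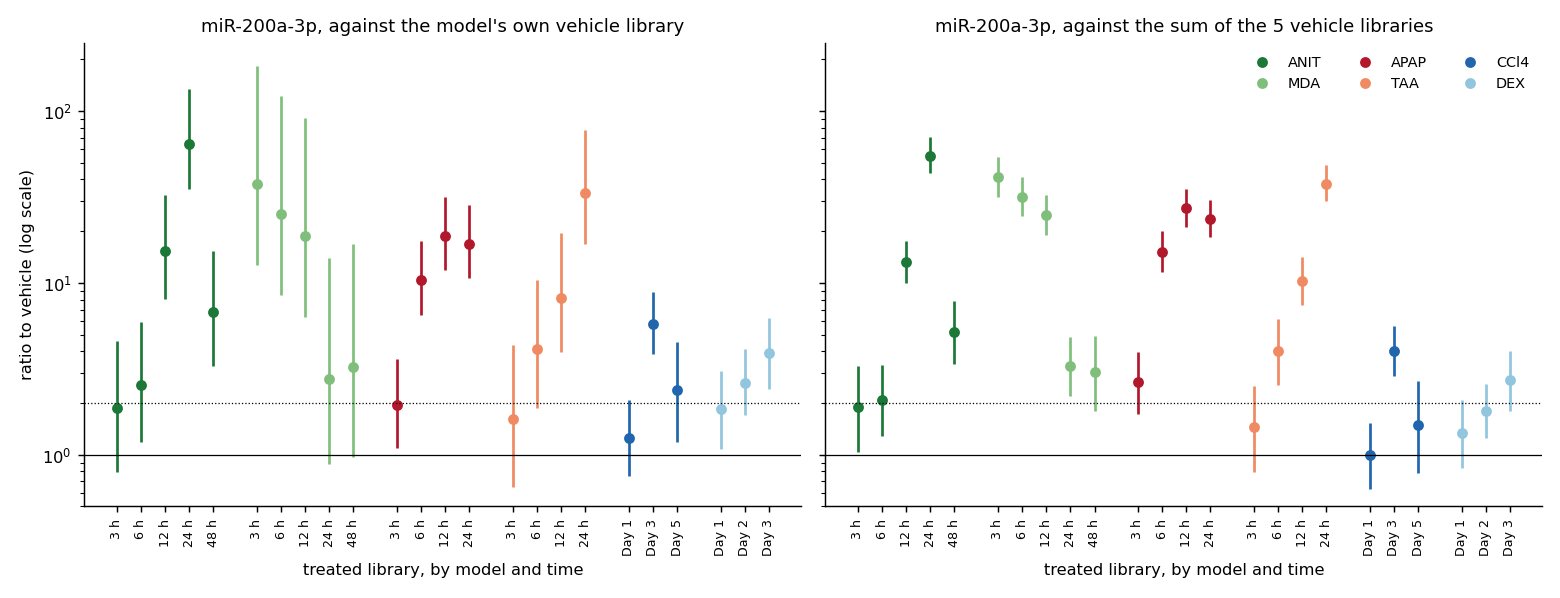
Ratio of miR-200a-3p to vehicle (log axis) in the 24 treated libraries, with exact 95% counting intervals, for the model's own vehicle library with TMM within the model (left) and for the 5 vehicle libraries added up with 1 TMM over all libraries (right). The solid line is a ratio of 1 and the dotted line the 2-fold threshold. The MDA intervals at left are wide because its vehicle library held 3 reads, and the 24 h ratios were 64.6 in ANIT and 33.2 in TAA.

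The highest level that the cluster reached in a model was higher in the bile duct models, over the times sampled. Those times differed: 3 to 48 h in the bile duct models, 3 to 24 h in the hepatocellular models and Day 1 onwards in the steatosis models. A peak before Day 1, such as that of MDA at 3 h, could not be seen in the steatosis models. The highest miR-200a-3p level was 9618 rpm in ANIT and 7623 rpm in MDA, against 2363 rpm in APAP, 2280 rpm in TAA, 383 rpm in CCl4 and 582 rpm in DEX. The lower of the bile duct models also lay above the highest other model for miR-200b-3p (1341 against 496 rpm) and for miR-429 (654 against 326 rpm). For each of the 3 the difference of the mean log2 peak gave p = 0.133 by a two-sided exact permutation test over the 6 models, in which 0.0667 is the smallest p that 2 against 4 models allow, and this test was chosen after the values were seen. For miR-203a-3p and miR-203b-3p the peaks of the 2 kinds of model overlapped (p = 0.867 and p = 0.2, same exact test). The separation of the cluster depended on the scaling. With 1 TMM over all libraries the lower bile duct peak of miR-200a-3p still lay above the highest other peak (5584 against 5114), but that of miR-200b-3p lay below it (982.5 against 1112) and so did that of miR-429 (479.3 against 731.4), all in TMM-scaled rpm.

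The bile duct models were set against their vehicles with the 4 acute models fitted together, the models serving as replicates, so that p-values measure the spread between these libraries. miR-200a-3p rose at 24 h by 5.61 on the log2 scale (SE 1.44, 95% interval 2.59 to 8.62, adjusted p = 0.0233, edgeR's quasi-likelihood test with Benjamini-Hochberg adjustment over 131 miRNAs). It was 1 of 5 members to pass there, where 5.34% of miRNAs were called higher and 3.05% lower, and its direction held in 2 of 2 models, though by 64.6-fold in ANIT and 2.75-fold in MDA. The call was lost without ANIT (2.10, adjusted p = 0.269), without APAP (5.55, adjusted p = 0.109) and without TAA (5.60, adjusted p = 0.114), and it held without MDA (6.01, adjusted p = 0.00254). At 24 h miR-200b-3p changed by 3.78 (SE 1.29) and miR-429 by 4.98 (SE 1.70), each with an adjusted p of 0.056. DESeq2 called both, among 28 miRNAs that it called at 24 h. At 3, 6 and 12 h edgeR called 0 of 5 members higher, where 0.763%, 2.29% and 1.53% of miRNAs were called higher. There 3, 1 and 4 members had an unadjusted p under 0.05, as did 16, 28 and 29 of all 131 miRNAs. DESeq2 called 0, 0 and 3 members, and 2, 7 and 14 miRNAs in all.

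No difference between the bile duct and the hepatocellular models passed for any of the 5 miRNAs. miR-200a-3p differed by 3.34 at 3 h on the log2 scale, bile duct minus hepatocellular (95% interval −0.58 to 7.27, adjusted p = 0.993), by 0.88 at 6 h (−2.94 to 4.71), by 0.57 at 12 h (−3.10 to 4.24) and by 0.85 at 24 h (−2.90 to 4.59, adjusted p = 0.731). These intervals are wide enough to hold both no difference and a difference of more than 10-fold. edgeR and DESeq2 both called 0 of 5 members at each of the 4 times, and 0 members had an unadjusted p under 0.05. Among all miRNAs edgeR called 0% at 3, 6 and 12 h, and 14.5% higher and 8.4% lower at 24 h. DESeq2 called 0, 0, 0 and 37 of all miRNAs at the 4 times, and 5, 3, 14 and 47 had an unadjusted p under 0.05. The direction for miR-200a-3p turned to −1.49 at 6 h without MDA and to −2.70 at 24 h without ANIT. With all 6 models at 24 h or Day 1 the bile duct models differed from the other 4 by 1.64 for miR-200a-3p (−2.41 to 5.70, adjusted p = 0.951) and by 1.25 for miR-200b-3p (−2.49 to 5.00). There 0 of 134 miRNAs (0%) passed by edgeR, 1 had an unadjusted p under 0.05, and DESeq2 also called 0.

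Set beside miR-122-5p in the same library, miR-200a-3p needs no scaling. MDA held 66.7, 12.4, 7.08 and 0.412 reads of miR-200a-3p per 1000 reads of miR-122-5p at 3, 6, 12 and 24 h, against 6.34 in its vehicle. ANIT held 7.52, 3.60, 6.49 and 27.2, against 15.6 in its vehicle. APAP held 3.54, 3.52, 2.20 and 13.8, against 14.9 in its vehicle, and TAA 0.469, 0.791, 0.776 and 9.97, against 8.63 in its vehicle. MDA at 3 h thus stood above every other library, and MDA at 24 h lay lowest of these 4 models, below TAA at 3 h. Averaged over 3 to 24 h the log2 ratio was −7.02 in the bile duct models and −8.69 in the hepatocellular models. The difference of 1.67 had p = 0.333 by a two-sided exact permutation test, the smallest p that 2 against 2 models allow, and at 24 h alone it was −1.80.

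**Figure D3:**
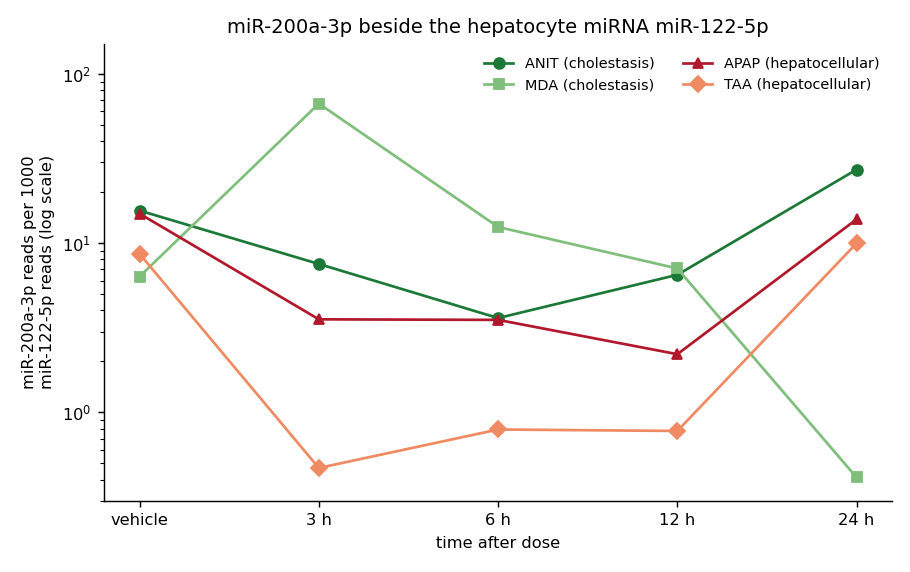
Reads of miR-200a-3p per 1000 reads of miR-122-5p (log axis) in the vehicle library and at 3 to 24 h in the 4 acute models. Each point is 1 library. MDA was highest at 3 h (66.7) and lowest at 24 h (0.412), and ANIT, APAP and TAA were highest among treated times at 24 h.

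Within the cluster the 3 miRNAs kept a similar order. Over the 26 libraries with at least 20 cluster reads, miR-200a-3p made up 71.8% ± 8.19 of the reads (SD, 55.2% to 84.0%), miR-200b-3p 18.6% ± 6.05 (10% to 30.8%) and miR-429 9.65% ± 4.78 (3.11% to 20.7%). The mean share of miR-200a-3p was 75% ± 6.32 in the treated bile duct libraries (n = 10) and 70.3% ± 9.18 in the other treated libraries (n = 14), a difference smaller than either SD. In the deepest libraries the shares were set more closely. miR-200a-3p held 81.8% of 1821 reads in ANIT at 24 h (exact 95% interval 80.0% to 83.6%), 84.0% of 676 in APAP at 24 h (81.0% to 86.7%) and 73.5% of 1189 in TAA at 24 h (70.9% to 76.0%). The TAA interval did not overlap the other 2, and TAA at 24 h had 10.5% of miR-429, against 5.88% in ANIT and 3.11% in APAP at that time. Levels of different miRNAs also depend on how well each is ligated in the library, so the shares are of reads and not of molecules.

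**Figure D4:**
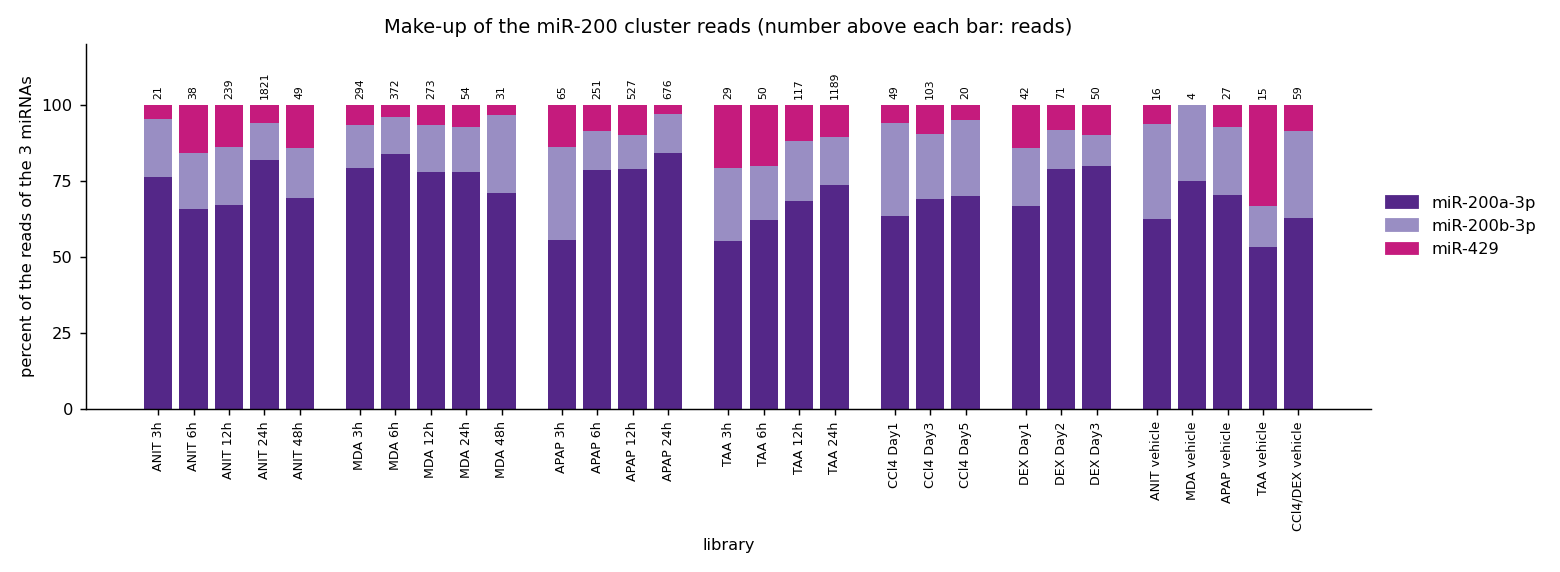
Percent of the summed reads of miR-200a-3p, miR-200b-3p and miR-429 held by each in every library, with the number of summed reads above the bar. Treated libraries of the bile duct models are at left, those of the other models next and vehicle libraries at right. miR-200a-3p held the most reads in every library, from 53.3% in the TAA vehicle (15 reads) to 84.0% in APAP at 24 h.

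miR-203a-3p passed as higher in none of the libraries where the cluster did. It had 16, 28, 23, 21 and 17 reads (369, 405, 332, 136 and 236 rpm) in ANIT at 3, 6, 12, 24 and 48 h, against 35 reads (696 rpm) in the ANIT vehicle, and it passed the rule as lower at 24 h alone (3.85-fold lower, 2.18 to 6.95). In MDA it stayed under the read minimum, with 5 to 19 reads against 6 in vehicle. In TAA it had 11, 14, 12 and 21 reads (128, 145, 63.6 and 54.8 rpm) at 3, 6, 12 and 24 h, against 55 reads (1663 rpm) in the TAA vehicle, and it was lower at each time, by 6.23-fold (3.22 to 13.2), 3.67-fold (2.01 to 7.15), 5.61-fold (2.97 to 11.5) and 8.61-fold (5.13 to 15.0). In APAP it had 35, 16, 14 and 52 reads (672, 143, 48.6 and 216 rpm), against 41 reads (870 rpm) in the APAP vehicle, and was lower at 6 h (2.56-fold, 1.41 to 4.89) and 12 h (3.40-fold, 1.82 to 6.76).

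It passed as lower in 1 of the 5 bile duct libraries where it was measured and in 6 of 14 other libraries, all 6 of them hepatocellular, and as higher in 0 of these 19. That rule called 17.8% to 25.4% of all measured miRNAs lower in the ANIT libraries and 6.92% to 35.8% in the other models' libraries. The TAA vehicle held the highest miR-203a-3p level of the 5 vehicle libraries. With 1 TMM over all libraries and the own vehicles, miR-203a-3p was lower in 1 of 5 bile duct and 8 of 14 other libraries, 6 of those 8 being hepatocellular. With that scaling and the 5 vehicle libraries added up the counts were again 1 of 5 and 8 of 14, with 4 of the 8 hepatocellular, and when a call was needed against each vehicle library it was lower in 0 of the 19. With total counts it was lower in 3 of 5 and 10 of 14. In the joint fit the bile duct models changed by between −0.98 and −0.23 against vehicle over the 4 times, with adjusted p from 0.383 to 0.885.

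miR-203b-3p, from the opposite strand, had another course than miR-203a-3p. In MDA it had 3, 10, 40, 23 and 11 reads (98.1, 113, 451, 132 and 173 rpm) at 3, 6, 12, 24 and 48 h, against 1 read (70.5 rpm) in the MDA vehicle, and it passed as higher at 12 h (10.5-fold, 1.78 to 425). In ANIT it had 3, 2, 1, 17 and 13 reads, against 2 in its vehicle, and stayed under the read minimum, with its ratio highest at 48 h (12.9, 2.93 to 118). In APAP it had 2, 3, 5 and 73 reads (38.4, 26.7, 17.3 and 304 rpm) at 3, 6, 12 and 24 h, against 1 read (21.2 rpm) in vehicle, and was 41.2-fold higher at 24 h (7.17 to 1651). In TAA it had 3, 1, 1 and 26 reads, against 1 in vehicle, and was 7.91-fold higher at 24 h (1.30 to 324), but at a log2 value of 1.17 it did not pass with total counts. The steatosis libraries held 0 to 6 reads.

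The share of miR-203b-3p in the reads of the pair needs no scaling, but both counts carry the strand limit given with the sequences. It was 27.4% ± 21.9 in treated libraries (SD, n = 24, 0% to 70.2%) and 5.83% ± 5.01 in vehicle libraries (n = 5, 1.79% to 14.3%). The highest share was 70.2% (exact 95% interval 56.6% to 81.6%), in MDA at 12 h, and the 24 h libraries of APAP and TAA held 58.4% (49.3% to 67.2%) and 55.3% (40.1% to 69.8%). In MDA the share was 37.5%, 43.5%, 70.2%, 54.8% and 64.7% at 3, 6, 12, 24 and 48 h, against 14.3% of 7 reads in its vehicle. In ANIT it was 15.8%, 6.67% and 4.17% at 3, 6 and 12 h and 44.7% and 43.3% at 24 and 48 h, against 5.41% in its vehicle. The high shares in ANIT, APAP and TAA were thus those of the latest times. In MDA the 3 h share rested on 3 reads of miR-203b-3p and 5 of miR-203a-3p (8.52% to 75.5%). The interval of the MDA vehicle share (0.361% to 57.9%) overlapped that of every treated MDA library, so the time of a rise in MDA is not set.

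**Figure D5:**
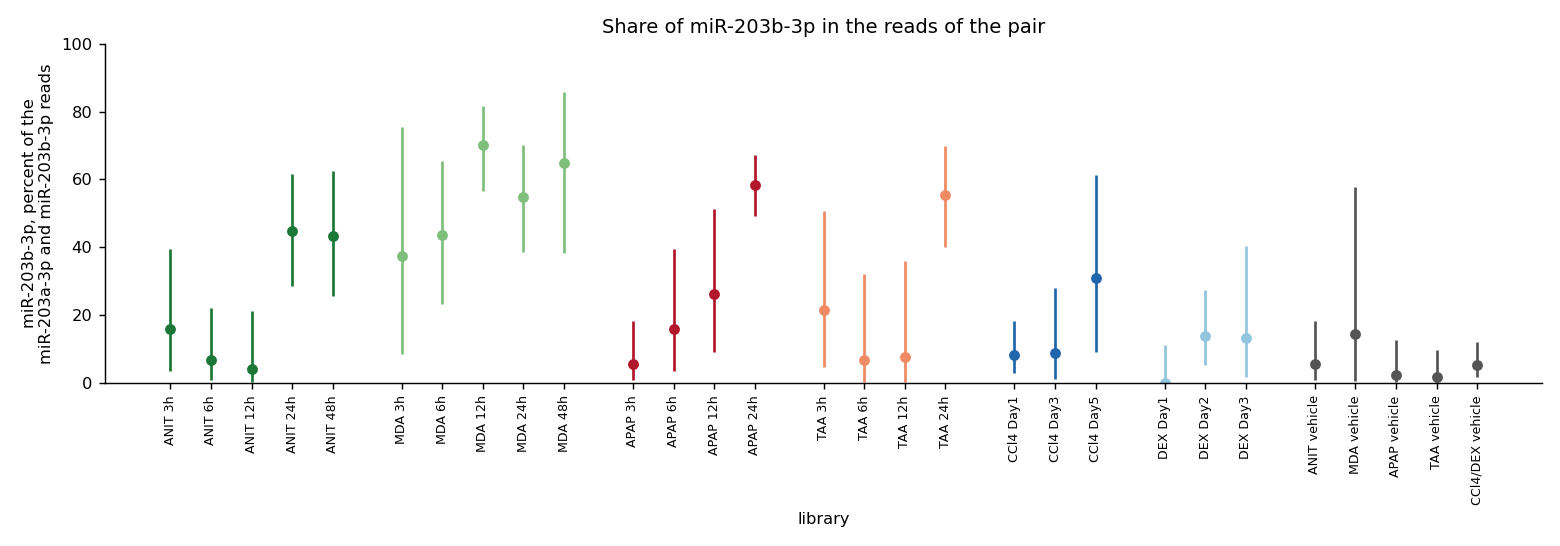
Reads of miR-203b-3p as a percent of the reads of miR-203a-3p and miR-203b-3p together, in treated libraries by model and in the 5 vehicle libraries (grey, right). Points are single libraries with exact 95% Clopper-Pearson intervals. The share reached 70.2% in MDA, 58.4% in APAP and 55.3% in TAA, and was at most 14.3% in vehicle libraries.

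Among 14 related epithelial miRNAs, 11 were listed in at least 1 table and 5 were measured in at least 1 model. miR-200c-3p, a relative of the cluster from another locus, was measured in ANIT alone, with 0, 1, 26, 52 and 0 reads at 3, 6, 12, 24 and 48 h, against 4 in its vehicle, and passed as higher at 12 h (6.22-fold, 2.16 to 24.5) and 24 h (5.63-fold, 2.07 to 21.5). In MDA miR-200c-3p had 12, 9, 4, 1 and 0 reads at those times, against 1 in vehicle. Its partner miR-141-3p had 15 reads at 24 h in ANIT, its highest count, against 0 reads in each of the 5 vehicle libraries. miR-182 and miR-183-5p, a sensory-organ cluster found in many epithelia, passed as higher in 9 of 10 and 8 of 10 bile duct libraries and each in 10 of 14 other libraries. That rule called 5.93% to 26.3% of measured miRNAs higher in the bile duct libraries and 6.06% to 43.9% in the other treated libraries. The fit called miR-182 higher in the bile duct models at 24 h (2.43 on the log2 scale, SE 0.65, adjusted p = 0.0233), and miR-183-5p changed by 2.08 (SE 0.66, adjusted p = 0.0506). miR-375-3p, a miRNA of islet and gut endocrine cells, passed as higher in 5 of 10 bile duct and 12 of 14 other libraries, and its change in the fit at 24 h was 1.16 (SE 0.68, adjusted p = 0.27). Of the 4 related miRNAs that could be fitted, 1 passed at 24 h, where 5.34% of all miRNAs were called higher and 3.05% lower. Between bile duct and hepatocellular models 0 of the 4 passed at any time by edgeR, where 0% of all miRNAs did at 3, 6 and 12 h and 14.5% were higher and 8.4% lower at 24 h. The 5' arms of miR-200a and miR-200b had at most 12 and 5 reads in a library.

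Across the 29 libraries the levels of the cluster went together. Pearson's r was taken on log2 rpm scaled by 1 TMM over all libraries. It was 0.966 between miR-200a-3p and miR-200b-3p and 0.899 between miR-200a-3p and miR-429. Between miR-200a-3p and the miR-203 pair it was −0.42 for miR-203a-3p and 0.511 for miR-203b-3p. Among the miRNAs compared, miR-30a-5p (0.81), miR-183-5p (0.777) and miR-182 (0.744) were most like miR-200a-3p. Those most like miR-203a-3p were miR-342-3p (0.573), miR-24-3p (0.497) and miR-140-3p (0.496). These values describe libraries that share models, vehicles and a common miR-122-5p load.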

How the data were processed

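Plasma small RNA libraries were made with the NEBNext Multiplex Small RNA kit and sequenced on a MiSeq, per the labels. The deposited tables give read counts per mature miRNA and a normalized signal, for which the submitters' processing notes name DESeq 1.28.0. The sources used here name no counting tool, miRNA release or build. The authors' signal was used only as an alternative. The 33 labelled samples have 29 distinct columns, as 4 ANIT groups with 2 samples have 1 column, made in a way the sources used here do not state. For the ratios to vehicle, counts were scaled by TMM over the measured miRNAs of a model (R 4.3.3, edgeR 4.0.16), and 0 reads were read as up to 3. In each edgeR fit TMM was taken over all libraries and kept miRNAs of that fit, with 0 reads left as 0. The acute fit held the vehicle, 3, 6, 12 and 24 h libraries of 4 models with the model as a block, and the other fit the 24 h or Day 1 and vehicle libraries of 6 models. Both kept miRNAs with 10 reads in 4 libraries, and edgeR's quasi-likelihood p-values were adjusted by Benjamini-Hochberg over all tested (threshold 0.05). DESeq2 1.42.0 was an alternative. Standard errors are approximate (the log2 change over the root of F). Correlations used edgeR's log2 rpm with a pseudocount of 2 reads, scaled to library size. The log2 read ratios used a pseudocount of 0.5 reads. Related miRNAs named in the text come from a list, and the 3 miRNAs most like a member by Pearson's r. Members and lists were chosen with earlier results of these data known. Scripts were tested on simulated data.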

Additional observations from a re-analysis of the deposited data

Results flagged for a closer look

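miR-429 in the TAA vehicle library was marked as apart from the other 4 vehicle libraries, at 151.22 rpm (5 reads) against 0 to 42.4 rpm. Its exact counting interval, 49.1 to 352.9 rpm, overlapped those of all 4. These were 0.503 to 110.7 rpm (ANIT), 0 to 260.2 rpm (MDA), 5.14 to 153.3 rpm (APAP) and 7.19 to 51.7 rpm (CCl4/DEX). A difference beyond counting error is thus not shown. The rule that marked the TAA vehicle value was applied to each of the 5 members. Its rate by chance, about 1 in 20 for each member, assumes normally distributed values and was not checked for counts this low. The TAA ratios of miR-429 rest on this library, and its level at 24 h was 326 rpm in TAA-treated rats.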

How the results depend on the processing

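Directions and calls of the treated libraries were recomputed with total counts, 1 TMM over all libraries, the authors' signal, and read minimums of 10 or none. Along with 1 TMM over all libraries, a call was also asked for against each vehicle library or, chosen after seeing the data, against the 5 added up, so these 2 settings change the scaling and the vehicle together. Calls of miR-200a-3p stayed within 1.5 times of 7 bile duct and 10 other libraries. With total counts, miR-200b-3p was higher in 3 other libraries, miR-429 in 2 and miR-203b-3p in 1, and miR-203a-3p was lower in 3 bile duct and 10 other libraries. Against each vehicle library with 1 TMM, miR-429 was higher in 2 other libraries, miR-203b-3p in 2 bile duct and 1 other, and miR-203a-3p was lower in 0 and 0. miR-429 was higher in 2 other libraries by the authors' signal and in 8 against the summed vehicles with 1 TMM (4 with 1 TMM alone). miR-203b-3p was higher in 2 bile duct libraries with 1 TMM, the authors' signal or a minimum of 10, and in 4 with no minimum or the summed vehicles. With total counts miR-200a-3p in CCl4 at Day 5 was at −0.2045 (log2).

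In the fits, miRNAs past the threshold in the bile duct models numbered 1, 5, 3 and 11 at 3, 6, 12 and 24 h. Total counts gave 13, 11 and 35 at 6, 12 and 24 h, DESeq2 gave 2, 14 and 28 at 3, 12 and 24 h, and no filter gave 4, 8 and 19 at those times. Leaving out 1 model at a time gave 0 to 1, 2 to 4, 2 to 9 and 2 to 9. Between bile duct and hepatocellular models, total counts gave 8 at 12 h, and at 24 h the 30 miRNAs became 0 without TAA and 16 to 19 without any of the other models. miR-200b-3p turned to −0.06582 at 6 h and −0.07678 at 12 h with no filter and to 0.6937 at 24 h with total counts. miR-203b-3p at 6 h turned to −0.09709 with DESeq2 and −0.1735 with no filter, and miR-203a-3p to −0.04339 with no filter over 6 models. The cause was not tested.

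Without 1 model the difference from the hepatocellular models ranged, at 3 h, from −1.336 to 2.687 for miR-200b-3p, −0.3808 to 7.229 for miR-429, −0.3053 to 2.011 for miR-203a-3p and −0.6728 to 0.1608 for miR-203b-3p. At 6 h it ranged from −1.489 to 1.731 for miR-200a-3p, −1.789 to 1.038 for miR-200b-3p and −0.427 to 0.8499 for miR-203b-3p. At 24 h it ranged from −2.704 to 1.648 for miR-200a-3p, −2.756 to 0.897 for miR-200b-3p and −0.3714 to 2.285 for miR-203a-3p. Over 6 models it ranged from −0.61 to 3.19 for miR-200a-3p, −0.8333 to 2.212 for miR-200b-3p, −0.9128 to 1.09 for miR-203a-3p and −0.4627 to 0.06518 for miR-203b-3p. The read ratio to miR-122-5p was −1.804 at 24 h alone, 2.368 with miR-192-5p, 1.012 over 6 models and 0.7971 to 2.544 without 1 model. The median share of miR-200a-3p was 79.06% of miR-200a-3p and miR-200b-3p alone. Depth limits the MDA ratios, whose vehicle library held 14176 reads. No paired analysis was possible because the replicate numbers of the labels exist for ANIT groups alone, which have 1 column each; the fits pair treated and vehicle libraries by model or vehicle set instead.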

Other observations

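The skin marker miR-205 stayed under the read minimum in all 6 models, and its reads are given as values. It had 1, 1, 1 and 0 reads in TAA at 3, 6, 12 and 24 h, against 15 reads (454 rpm) in the TAA vehicle, and 12, 4, 7 and 0 reads in APAP at those times, against 11 reads (233 rpm) in the APAP vehicle. These 2 vehicle libraries were also those with the highest miR-203a-3p levels, 1663 and 870 rpm. miR-31a-5p, another miRNA of epithelia, had 29 reads (75.7 rpm) in TAA at 24 h, against 0 in the TAA vehicle, and 0 to 6 reads in the 28 other libraries.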
